A study of Saccharomyces cerevisiae with 12 samples.

Results

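The genes described here encode the small-subunit processome and the factors that finish the 40S ribosomal subunit in budding yeast, Saccharomyces cerevisiae. The members are 60 named genes, of 5085 genes in each deposited table. Of them 59 were found by symbol, and DBP4 was found under its other name, HCA4, so 60 were measured and 60 were tested at each dose. The list was drawn up by function and not by the values reported here, although earlier results of these data were known when it was drawn up. The study asked how the transcriptome responds when RAP1 is expressed at lower levels. RNA was measured in 12 samples of log-phase cells of strain TH_5234, in 4 groups of 3 samples: a control group and groups given doxycycline at 0.01, 0.1 or 0.5 µg/mL.

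All 4 groups are the same MATa strain. Its RAP1 promoter is replaced by the construct pRAP1::kanR-tetO7-TATA, a tetracycline-regulated promoter, and URA3::CMV-tTA supplies the activator that doxycycline releases from it. The strain also carries his3-1, leu2-0 and met15-0. The controls share every one of these alleles, although the table headers call them WT. No group was given doxycycline without this construct, so the promoter's response and any other effect of the drug cannot be told apart. A single engineered strain stands behind all values, and no label states that a group's samples are separate cultures, so the authors' q-values measure sample-to-sample spread that could be technical. Each level is the authors' pooled FPKM (fragments per kilobase of transcript, scaled to sequencing depth) of the 3 samples of a group, so it has no SD, and the depth behind it is unknown. The 3 tables were scaled separately; a single control level given below is that of the 0.01 µg/mL table, and each ratio uses the control of its own table. RAP1 itself stood at 33.3, 31.05 and 21.99 FPKM with rising dose, against 31.7, 31.5 and 31.5 FPKM in the control column of the same table, and only the value at 0.5 µg/mL was called lower (q = 0.00764 in the authors' deposited table). The log2 ratio of RAP1 to control was -0.52 at that dose, or -0.22 counted from the median of all tested genes. Of all tested genes, 32.8% lay below it there.

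A ribosome starts as one long precursor RNA made in the nucleolus. The small-subunit processome assembles on that precursor as it is transcribed: the UTP-A and UTP-B complexes bind the leader, the U3 small nucleolar ribonucleoprotein pairs with the precursor and keeps it from folding too early, and helicases, GTPases and nucleases then release and cut the 18S part. Late factors accompany the particle to the cytoplasm and complete it there. In yeast these genes belong to the ribosome biogenesis regulon, whose promoters carry elements named PAC and RRPE, while Rap1 is known as an activator of the ribosomal protein genes, which form a regulon of their own.

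The 40S assembly genes fell with doxycycline in large part, and none rose at any dose. A gene is called lower or higher where the authors' q was below 0.05 in their deposited table. The smallest q of each table (0.000608, 0.000329 and 0.000273 with rising dose) is shared by 6, 27 and 48 members. It therefore does not rank these members among themselves. At 0.01 µg/mL 39 of 60 members were called lower and 0 higher, where 15.4% of all tested genes were called lower and 8.75% higher. At 0.1 µg/mL 51 of 60 were called lower and 0 higher, beside 20.4% and 17.6% of all tested genes. At 0.5 µg/mL 57 of 60 were called lower and 0 higher, beside 38.9% and 7.49%. By this threshold the members' share called lower stood above the background at every dose. With a minimum change of 2-fold from the median of all tested genes, 2, 3 and 3 of 60 members were called lower. Of all tested genes 67 of 5049, 209 of 5054 and 205 of 5047 then were, so at the upper 2 doses the shares were near each other. The members' median control level was 170.4 FPKM, against 82.5 FPKM for all tested genes, and whether this raised their share was not tested. The log2 ratio was below 0 in 60, 59 and 60 members, and the exception, TSR1 at 0.1 µg/mL, was not called. Among all tested genes it was below 0 in 2977 of 5049, 2643 of 5054 and 3721 of 5047. Below the median of all tested genes lay 60, 59 and 59 members. The 3 comparisons share their control samples, so their likeness is not independent evidence. In bulk RNA, fewer cells expressing a gene and less RNA per cell cannot be told apart.

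The median log2 ratio of doxycycline level to control level over the 60 members was -0.54 at 0.01 µg/mL, -0.71 at 0.1 µg/mL and -0.97 at 0.5 µg/mL. Over all tested genes the medians were -0.08, -0.03 and -0.30. Counted from these, the members' medians were -0.46, -0.68 and -0.67, so that beyond the shift of all genes the median member was about as far down at 0.5 as at 0.1 µg/mL. With the levels rescaled to a common sum in each group, the members' medians were -0.67 at 0.1 and -0.75 at 0.5 µg/mL. How far the 2 doses differ thus depends on the reference. At 0.5 µg/mL 29 members were at least 2-fold lower than control, and 3 were when the change was counted from the median of all tested genes. With that minimum, all genes called at 0.5 µg/mL split into 509 lower and 125 higher, and, counted from the median, into 205 and 214. Put as levels, the median member stood at 68.8%, 61.1% and 51.0% of control and the median gene at 94.9%, 98.1% and 81.0%. The middle 50% of the members lay between -0.62 and -0.42 at 0.01, between -0.82 and -0.55 at 0.1 and between -1.12 and -0.82 at 0.5 µg/mL. These bands were 0.19, 0.27 and 0.30 wide, against 0.46, 0.63 and 0.66 for all tested genes. The assembly genes of the large subunit, described below, had bands of 0.18, 0.26 and 0.26. All members together ran from -2.07 to -0.21 at 0.5 µg/mL. Added together, the members' levels were 12102, 10758 and 9326 FPKM with rising dose, against 17620, 17560 and 17543 FPKM in the controls, or 68.7%, 61.3% and 53.2%.

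**Figure D1:**
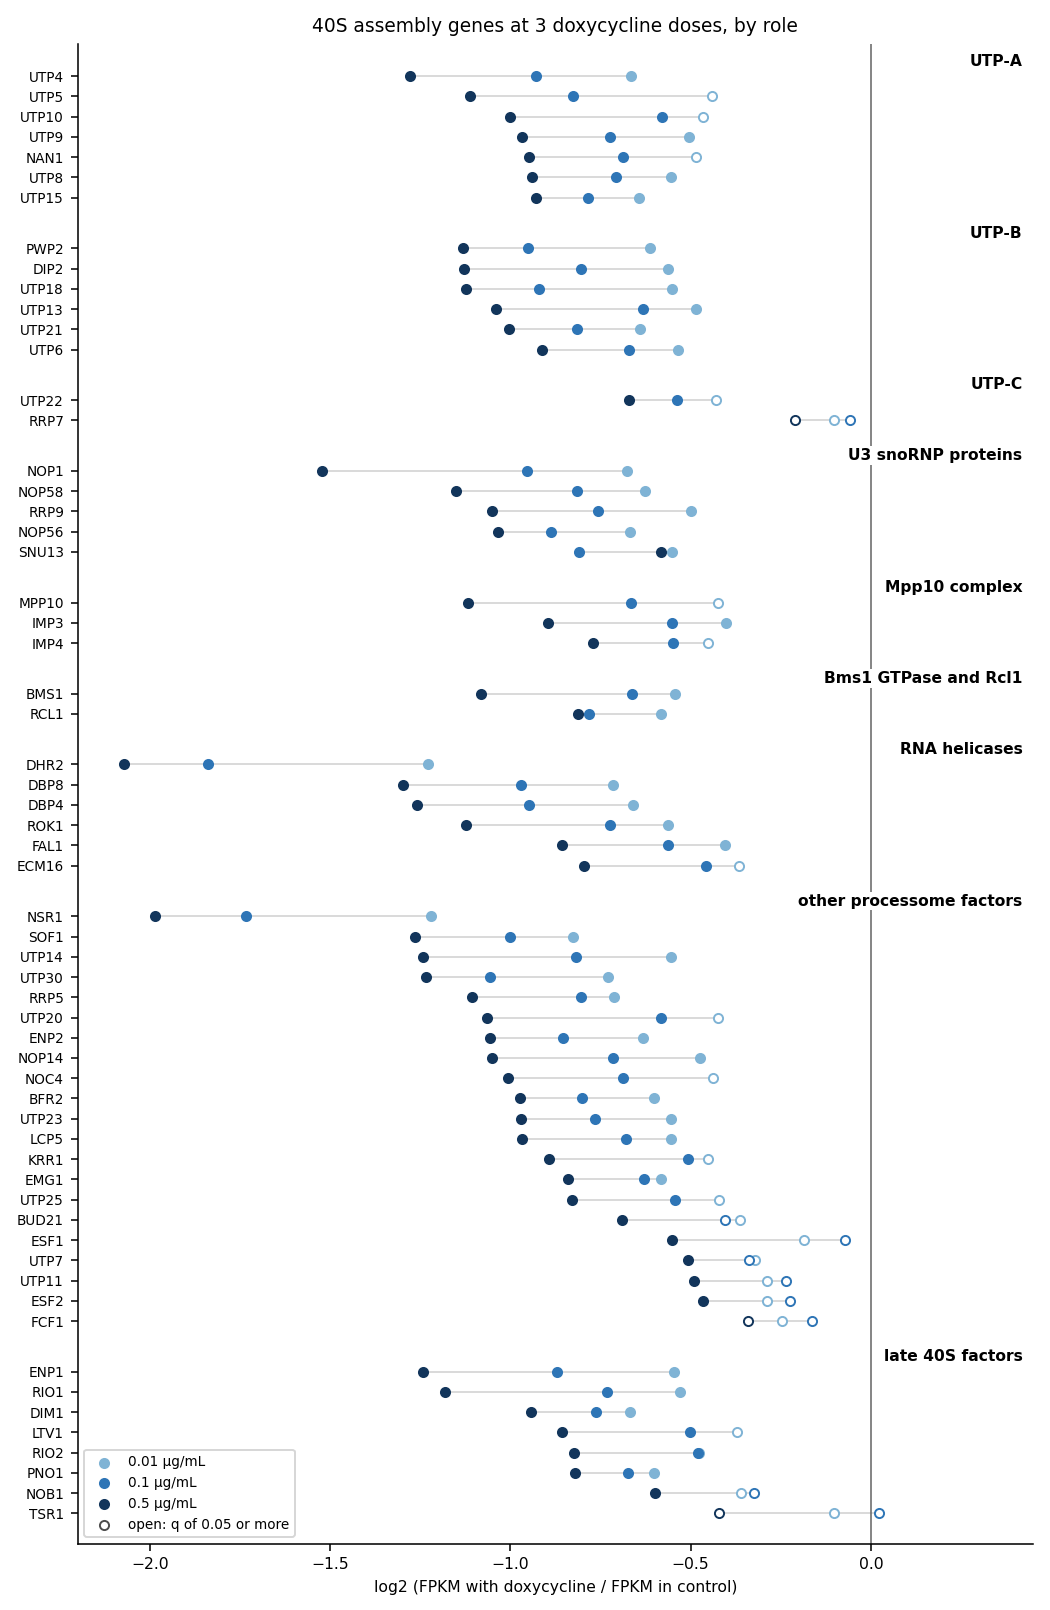
The log2 ratio of pooled FPKM with doxycycline to pooled FPKM in the control (x axis) is shown for each of the 60 genes (y axis, by role), with 1 point per dose; filled points were called lower by the authors' q and open points were not called. Most genes lie between -0.4 and -1.3, DHR2 and NSR1 reach -2.07 and -1.98 at 0.5 µg/mL, and RRP7, FCF1 and TSR1 have open points at every dose.

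The promoters of these genes share short elements, so a few are shown. The start of each gene in RefSeq is its start codon, which is ATG in all 60 members, so the window searched was the 250 bases before the start codon in the R64 genome. The PAC core GATGAG and the RRPE core AAAATTTT were searched with no mismatch on both strands. The RRPE core reads the same on both strands and was counted once, and it cannot overlap a PAC core, since the latter begins and ends with a base the former lacks. PAC cores can overlap each other, and each was counted. The 150 bases from 250 bases before the start codon onward follow for the 2 members with both cores that had the largest fall at 0.5 µg/mL and for the 2 members with neither core that had the smallest. They are written 5′ to 3′ on the gene's strand, with every PAC and RRPE core in capitals. Distances below are from the start codon to the nearest base of a core.
NSR1, chrVII:807757-807906, minus strand: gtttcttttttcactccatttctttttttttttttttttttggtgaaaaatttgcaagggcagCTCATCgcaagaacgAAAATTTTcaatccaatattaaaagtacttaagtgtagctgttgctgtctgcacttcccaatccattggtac
NOP1, chrIV:427114-427263, plus strand: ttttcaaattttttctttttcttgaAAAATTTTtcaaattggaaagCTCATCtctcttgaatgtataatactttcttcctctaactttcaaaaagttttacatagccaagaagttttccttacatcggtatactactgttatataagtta
ESF2, chrXIV:724407-724556, minus strand: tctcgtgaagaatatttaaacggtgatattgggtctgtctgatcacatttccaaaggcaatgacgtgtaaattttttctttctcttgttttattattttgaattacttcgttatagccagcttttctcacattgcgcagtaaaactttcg
UTP22, chrVII:662108-662257, plus strand: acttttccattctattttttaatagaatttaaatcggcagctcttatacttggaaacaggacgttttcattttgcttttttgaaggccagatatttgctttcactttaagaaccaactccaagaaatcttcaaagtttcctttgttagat

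In NSR1 the PAC core lay 182 bases before the start codon and the RRPE core 165 bases before it. In NOP1 the order was the other way round, with the RRPE core at 218 and the PAC core at 199 bases. Both PAC cores are on the opposite strand, read as CTCATC above. The windows of ESF2 and UTP22 hold neither set of letters, which says only that these exact letters are missing in the 250 bases searched.

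The PAC core was present before 52 of 60 members, or 86.7%, against 17.0% of 6001 protein-coding promoters of the same length. The RRPE core was present before 46 members, or 76.7%, against 8.65% of all promoters. Both occurred before 42 members, or 70.0%, against 4.08%. A Rap1 core, ACCCNNACA, searched in the same way and free to share end bases with an RRPE core, was present before 2 members, RCL1 and NOB1, or 3.33% against 2.50%. The PAC and RRPE elements were thus shared by most members, and the exact Rap1 core was found before about as few members as promoters at large. In the same window the Rap1 core was found before only 4 of 56 small-subunit ribosomal protein genes (7.14%). Rap1 is known to activate ribosomal protein genes, so this search cannot tell whether the members have Rap1 sites. The window is short for Rap1 sites: over 600 bases, a length chosen after the data were seen, the Rap1 core was found before 5 of 60 members (8.33%, against 6.45% of 5999 promoters) and before 18 of 56 small-subunit ribosomal protein genes (32.1%). Most of these protein genes thus lacked the exact letters in the longer window too, so the strict core is a limit as well. All the cores counted here are matches of letters, not sites shown to be bound.

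**Figure D2:**
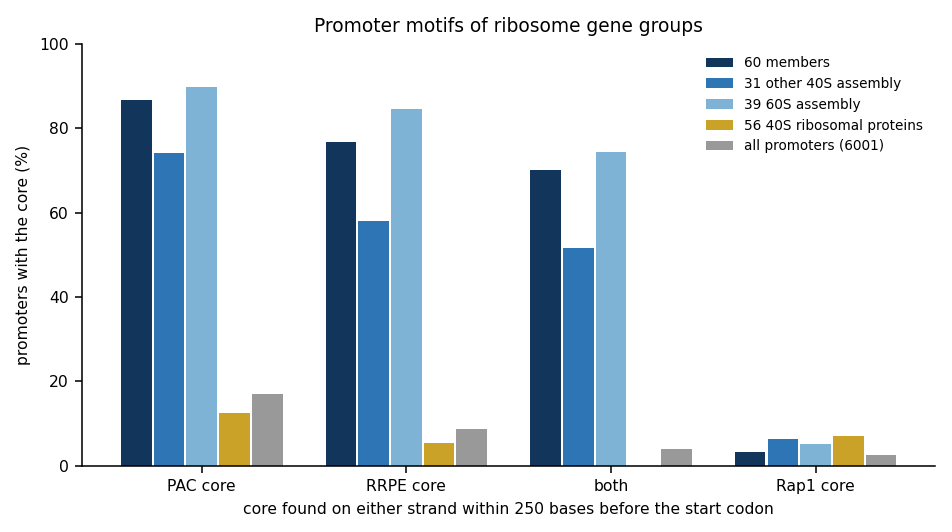
Bars give the percentage of promoters (y axis, from 0) that hold each core on either strand within 250 bases before the start codon (x axis), for 5 sets of genes. The members stand at 86.7% for PAC and 76.7% for RRPE, near the 60S assembly genes at 89.7% and 84.6%, while the small-subunit ribosomal protein genes stand at 12.5% and 5.36%.

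The places and the order of the cores were read for the members only, with no other promoters beside them. The 80 PAC matches before the members had a median distance of 103 bases from the start codon, with the middle 50% between 82 and 127 bases, and the 55 RRPE matches a median of 126 bases, with the middle 50% between 110 and 153. In the 42 members with both, the nearest pair had the RRPE core on the far side of the PAC core in 33 and was separated by a median of 9 bases (range 1 to 34).

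**Figure D3:**
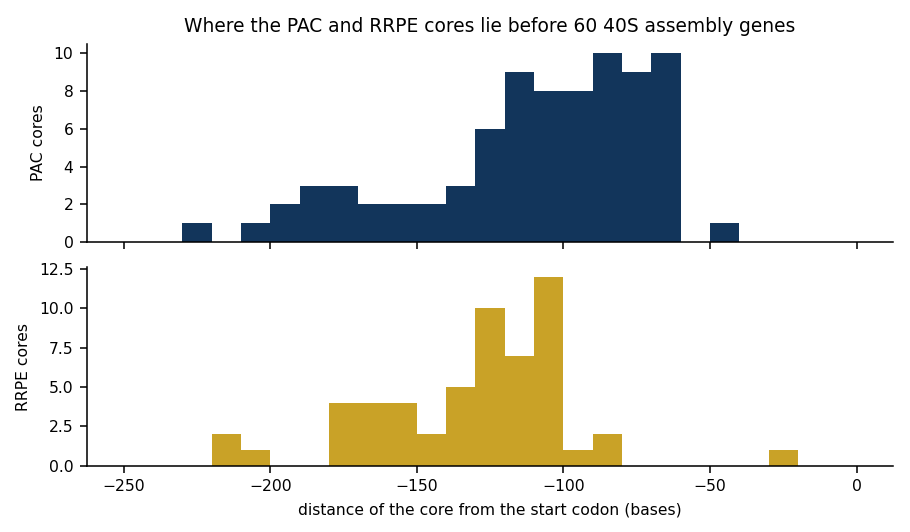
Counts of PAC cores (upper panel) and RRPE cores (lower panel) before the 60 members (y axis) by distance from the start codon in bases (x axis, start codon at 0). PAC cores gather closer to the start codon, with a median of 103 bases, than RRPE cores, with a median of 126 bases.

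Members with and without these cores had overlapping values. The 42 members with both cores had median log2 ratios of -0.54, -0.72 and -1.004 with rising dose, and the other 18 had -0.53, -0.67 and -0.87. The 8 members without the PAC core are UTP4, UTP15, UTP22, RRP7, UTP30, ESF2, FCF1 and EMG1. At 0.5 µg/mL these ran from -1.28 for UTP4 to -0.21 for RRP7, while the 52 with it ran from -2.07 to -0.42. DHR2, the member with the largest fall, has 3 overlapping PAC cores and no RRPE core. Outside the list, the 190 measured genes with both cores had medians of -0.41, -0.50 and -0.75, and the 4742 without the pair had -0.06, -0.01 and -0.28. This set includes other ribosome assembly genes, and the difference was not tested.

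The UTP-A genes encode the complex that binds the leader of the precursor first and is tied to its transcription. Of 7 UTP-A genes 4, 7 and 7 were called lower with rising dose, at medians of -0.50, -0.72 and -0.97. UTP4 (YDR324C, chromosome IV) had the largest fall, from a control level of 148 FPKM to 93.5, 77.6 and 60.9 FPKM. Its log2 ratios were -0.67, -0.93 and -1.28 (q = 0.00161, 0.000329 and 0.000273 in the authors' deposited tables). UTP15 (YMR093W, chromosome XIII) had the smallest at 0.5 µg/mL, going from 156 FPKM to 100.03, 90.4 and 81.6 FPKM, with log2 ratios of -0.64, -0.78 and -0.93 (q = 0.00206, 0.000329 and 0.000273 in the authors' deposited tables). Both genes were chosen by their change at 0.5 µg/mL, so their wider distance at that dose follows from the choice. UTP5, UTP10 and NAN1 were not called at 0.01 µg/mL, at -0.44, -0.47 and -0.48, and UTP8 and UTP9 lay at -0.56 and -0.50 there and at -0.94 and -0.97 at 0.5 µg/mL.

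UTP-B proteins form a scaffold that joins the leader to the U3 particle. All 6 UTP-B genes were called lower at each dose, at medians of -0.56, -0.81 and -1.08. PWP2 (YCR057C, chromosome III) went from 123 FPKM to 80.4, 63.4 and 55.9 FPKM, with log2 ratios of -0.61, -0.95 and -1.13 (q = 0.00591, 0.000329 and 0.000273 in the authors' deposited tables). UTP6 (YDR449C, chromosome IV) went from 136 FPKM to 93.6, 84.8 and 71.8 FPKM, with log2 ratios of -0.53, -0.67 and -0.91 (q = 0.00693, 0.000329 and 0.000273 in the authors' deposited tables). For comparison, at 0.5 µg/mL DIP2, UTP18, UTP13 and UTP21 stood at -1.13, -1.12, -1.04 and -1.002.

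Of the 2 UTP-C genes on the list, 0, 1 and 1 were called lower with rising dose. UTP22 and RRP7 encode subunits of UTP-C together with Rrp36 and casein kinase 2. Utp22, Rrp7 and casein kinase 2 also occur with Ifh1, a coactivator of ribosomal protein genes, in a complex named CURI. RRP7 (YCL031C, chromosome III) was at 271, 279 and 251 FPKM against 291, 290.1 and 289.8 FPKM in the control of each table. Its log2 ratios of -0.10, -0.06 and -0.21 were not called (q = 0.765, 0.851 and 0.392 in the authors' deposited tables), and 46.8%, 47.3% and 57.7% of all tested genes lay below it. UTP22 (YGR090W, chromosome VII) went from 109.8 FPKM to 81.4, 75.3 and 68.7 FPKM. It was called lower at the upper 2 doses only (log2 ratios -0.43, -0.54 and -0.67, q = 0.0831, 0.0204 and 0.00155 in the authors' deposited tables). RRP36, which is no member, was called lower at each dose (-0.64, -0.73 and -0.91). Of the 4 casein kinase 2 genes, CKA1 (-0.03, 0.09 and -0.19), CKA2 (-0.21, -0.10 and -0.31) and CKB1 (-0.12, -0.05 and -0.41) were called at no dose, and CKB2 (-0.08, -0.09 and -0.56) was called lower at 0.5 µg/mL. Casein kinase 2 has many substrates outside the ribosome.

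SNU13, NOP1, NOP56 and NOP58, which encode the core proteins of box C/D particles, had the highest control levels of the list. RRP9, whose protein is specific to U3, had a control level of 136 FPKM, below the members' median of 170.4 FPKM. All 5 genes were called lower at each dose, at medians of -0.63, -0.82 and -1.05. NOP1 (YDL014W, chromosome IV), the fibrillarin methyltransferase, went from 1855 FPKM to 1161, 954 and 642 FPKM. Its log2 ratios were -0.68, -0.95 and -1.52 (q = 0.0284, 0.000329 and 0.000273 in the authors' deposited tables). SNU13 (YEL026W, chromosome V), which also binds a spliceosomal RNA, had the highest level of any member and did not follow the dose order between the upper doses. It went from 2844 FPKM to 1940, 1618 and 1891 FPKM, with log2 ratios of -0.55, -0.81 and -0.58 (q = 0.0453, 0.000329 and 0.0338 in the authors' deposited tables). For comparison, at 0.5 µg/mL its value was -0.28 relative to all tested genes, against -1.22 for NOP1. NOP58, RRP9 and NOP56 lay at -1.15, -1.05 and -1.03 at that dose.

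**Figure D4:**
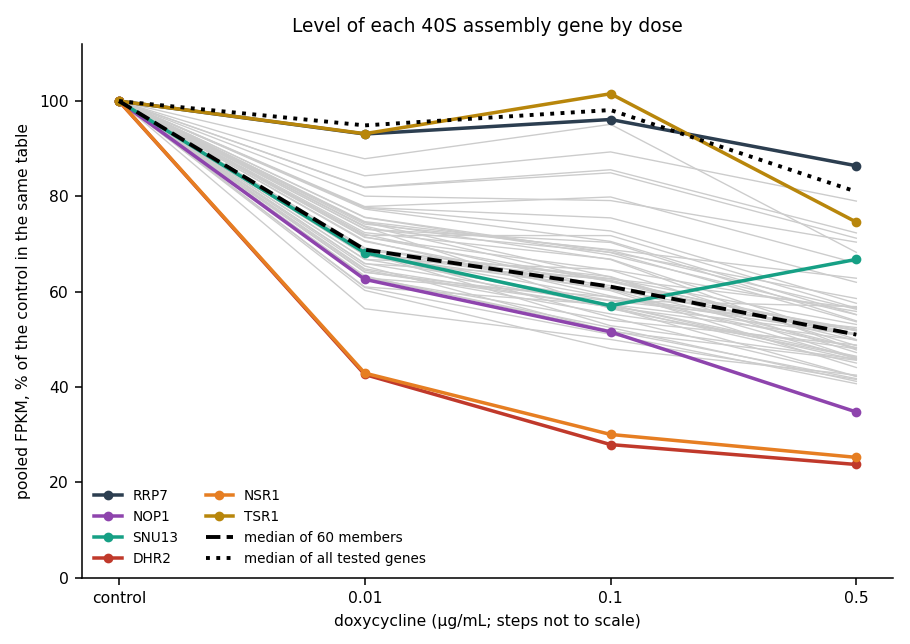
Each line is 1 gene, drawn as its pooled FPKM in percent of the control of the same table (y axis, from 0) at each doxycycline dose (x axis, steps not to scale); the dashed line is the median of the 60 members and the dotted line the median of all tested genes. DHR2 and NSR1 fall to 23.8% and 25.3% at 0.5 µg/mL, SNU13 turns up from 57.1% to 66.8% between the upper doses, and RRP7 stays near the median of all genes.

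Mpp10, Imp3 and Imp4 form a complex that helps U3 pair with the precursor. Of the 3 genes 1, 3 and 3 were called lower with rising dose. MPP10 (YJR002W, chromosome X) went from 188 FPKM to 140.1, 118 and 86.2 FPKM, with log2 ratios of -0.42, -0.66 and -1.12 (q = 0.0768, 0.00114 and 0.000273 in the authors' deposited tables). IMP4 (YNL075W, chromosome XIV) went from 439 FPKM to 321, 299 and 256 FPKM, with -0.45, -0.55 and -0.77 (q = 0.0503, 0.00991 and 0.000273 in the authors' deposited tables). IMP4 thus missed the threshold at 0.01 µg/mL by little, and IMP3, at -0.40, passed it (q = 0.0464 in the authors' deposited table).

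Bms1 is the GTPase of the processome and Rcl1 its partner. BMS1 (YPL217C, chromosome XVI) went from 119 FPKM to 82.0, 75.2 and 56.2 FPKM, with log2 ratios of -0.54, -0.66 and -1.08 (q = 0.0188, 0.00337 and 0.000273 in the authors' deposited tables). RCL1 (YOL010W, chromosome XV) went from 185 FPKM to 124, 107 and 105 FPKM, with -0.58, -0.78 and -0.81 (q = 0.00206, 0.000329 and 0.000273 in the authors' deposited tables). Both fell at each dose.

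The helicase genes had the lowest median of the 9 roles at 0.5 µg/mL. Helicases unwind pairings of small nucleolar RNAs with the precursor and remodel the particle. Of 6, the number called lower was 5, 6 and 6, at medians of -0.61, -0.84 and -1.19. DHR2 (YKL078W, chromosome XI, 288845 to 291052 in R64), a DEAH-box helicase, had the largest fall of all members at each dose, from 72.4 FPKM to 30.9, 20.2 and 17.1 FPKM. Its log2 ratios were -1.23, -1.84 and -2.07, each at the smallest q of its table (0.000608, 0.000329 and 0.000273 in the authors' deposited tables), which DHR2 shared with other members. Only 0.515%, 0.376% and 0.476% of all tested genes lay below DHR2. ECM16 (YMR128W, chromosome XIII), which encodes the helicase Dhr1 that frees U3 from the precursor, had the lowest control level of any member. It went from 39.4 FPKM to 30.6, 28.6 and 22.6 FPKM, with -0.37, -0.46 and -0.80 (q = 0.084, 0.0217 and 0.000273 in the authors' deposited tables). For comparison, at 0.5 µg/mL DBP8 was at -1.30, DBP4 at -1.26, ROK1 at -1.12 and FAL1, a relative of the translation factor eIF4A, at -0.86.

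The 21 other processome factors were spread from -1.98 for NSR1 to -0.34 for FCF1 at 0.5 µg/mL. Of them 11, 15 and 20 were called lower with rising dose, at medians of -0.47, -0.68 and -0.97. NSR1 (YGR159C, chromosome VII, 806412 to 807656 in R64), the yeast relative of nucleolin, went from 642 FPKM to 276, 192 and 162 FPKM. Its log2 ratios were -1.22, -1.73 and -1.98 (q = 0.000608, 0.000329 and 0.000273 in the authors' deposited tables), and it stood next to DHR2 as one of 2 members more than 2-fold lower at 0.01 µg/mL. FCF1 (YDR339C, chromosome IV), which encodes the nuclease Utp24 that cuts the precursor, was at 354, 374 and 330.2 FPKM against 419.7 FPKM in the control. Its log2 ratios of -0.25, -0.16 and -0.34 were called at no dose (q = 0.311, 0.516 and 0.133 in the authors' deposited tables).

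Between these lay a graded series at 0.5 µg/mL. SOF1 was at -1.27, UTP14, which activates Dhr1, at -1.24 and UTP30 at -1.23. RRP5, a factor of both subunits, and the very large UTP20 followed at -1.11 and -1.07, and ENP2, NOP14 and NOC4 at -1.06, -1.05 and -1.01. BFR2, UTP23 and LCP5 were all at -0.97, KRR1 at -0.89, the methyltransferase gene EMG1 at -0.84 and UTP25 at -0.83. BUD21 was at -0.69. ESF1, UTP7, UTP11 and ESF2 came last, at -0.55, -0.51, -0.49 and -0.47, and were called lower at 0.5 µg/mL only. Counted from the median of all tested genes, they lay at -0.25, -0.20, -0.19 and -0.16 at that dose. At 0.1 µg/mL these 4 stood at -0.07, -0.34, -0.24 and -0.22, while Dbp8, the helicase that Esf2 stimulates, had a gene at -0.97. NOP14, NOC4 and EMG1, whose proteins interact, were at -0.72, -0.69 and -0.63 at that dose.

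The late factors accompany the pre-40S particle. Of 8 genes 5, 6 and 7 were called lower with rising dose, at medians of -0.50, -0.59 and -0.84. ENP1 (YBR247C, chromosome II), which joins early and leaves late, went from 203 FPKM to 139, 110.4 and 85.2 FPKM. Its log2 ratios were -0.55, -0.87 and -1.24 (q = 0.0121, 0.000329 and 0.000273 in the authors' deposited tables). The kinase gene RIO1 followed at -1.18 at 0.5 µg/mL, ahead of the dimethyltransferase gene DIM1 at -0.94, LTV1 at -0.86 and RIO2 and PNO1 both at -0.82. TSR1 (YDL060W, chromosome IV), which encodes a GTPase-like factor of the cytoplasmic particle, was at 73.6, 80.0 and 58.7 FPKM against 79.0, 78.7 and 78.7 FPKM in the controls. Its log2 ratios of -0.10, 0.02 and -0.42 were called at no dose (q = 0.754, 0.942 and 0.0534 in the authors' deposited tables), and the value at 0.1 µg/mL was the only one above 0 of any member. NOB1, the nuclease gene for the last cut of 18S RNA, was not called at 0.01 and 0.1 µg/mL (-0.36 and -0.32) and was called lower at 0.5 µg/mL (-0.60).

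The members not called form a short list. At 0.1 µg/mL they were RRP7, UTP7, UTP11, BUD21, ESF1, ESF2, FCF1, NOB1 and TSR1, 9 in all, and at 0.5 µg/mL RRP7, FCF1 and TSR1. At 0.01 µg/mL 21 were not called, all with a log2 ratio below 0. The smallest absolute log2 ratio called among all genes was 0.39, 0.38 and 0.39 in the 3 tables, so no smaller change was called. Larger changes were not always called either. At 0.01 µg/mL NAN1, UTP10 and UTP5 were not called at -0.48, -0.47 and -0.44, nor was TSR1 at -0.42 at 0.5 µg/mL. Level and length went with small differences: the 20 with the lowest control levels, from 39.4 to 136 FPKM, had a median of -1.04 at 0.5 µg/mL, the middle 20 had -1.05 and the 20 with the highest levels had -0.87. By coding length the medians at 0.5 µg/mL were -0.83 for the 20 shortest, -1.04 for the middle 20 and -1.05 for the 20 longest.

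On the genome the members are scattered over 14 chromosomes. No member is next to another, none overlaps another gene annotated in RefSeq and none has an intron in its coding sequence. Of 6 neighbours among the other ribosome genes looked at, 3 are assembly genes of the large subunit in the same direction. DBP8 (-0.72, -0.97 and -1.30 with rising dose) lies beside NMD3, an export factor of the large subunit (-0.77, -0.97 and -1.33). UTP9 lies beside RIX1, at -0.97 and -1.06 at 0.5 µg/mL, and ESF2 beside NOG2, at -0.47 and -0.89. Of the ribosomal protein neighbours, TSR1 diverges from RPS29B across 820 bases, at -0.42 and -0.46 at 0.5 µg/mL. These were near each other at that dose only: at 0.01 and 0.1 µg/mL TSR1 was at -0.10 and 0.02 and RPS29B at -0.52 and -0.71. UTP6 diverges from RPS18A across 1020 bases, at -0.91 and -1.49 at 0.5 µg/mL. RRP5 diverges from RPS10B across 1290 bases, with -1.11 and -1.06 at that dose.

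Other genes of 40S assembly, 31 that are not on the list, had a lower share called than the members and a wider spread. Of them 16, 20 and 24 were called lower with rising dose and 0 higher, at medians of -0.51, -0.52 and -0.83. The middle 50% at 0.5 µg/mL lay between -1.18 and -0.55. The difference from the members was not tested. The largest falls at 0.5 µg/mL were those of HAS1, a helicase of both subunits (-1.81), BUD22 (-1.51), the acetyltransferase gene KRE33 (-1.40), the export factor gene RRP12 (-1.39) and SGD1, whose protein works with Fal1 (-1.31). Those called at no dose were CKA1, CKA2, CKB1, TMA23 (-0.37 at 0.5 µg/mL), HRR25, a kinase with roles outside the ribosome (-0.21), TRM112, which activates several methyltransferases (-0.19), and the helicase gene RRP3 (-0.17).

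Set beside the other ribosome genes, the members lay near the assembly genes of the large subunit. Of 39 such genes, 31, 35 and 38 were called lower and 0 higher, at medians of -0.59, -0.80 and -1.08. Of 56 genes for proteins of the small subunit, 49, 52 and 52 were called lower and 0 higher, at medians of -0.85, -1.04 and -1.19. The summed level of these protein genes was 64.1%, 60.9% and 60.6% of control with rising dose, against 68.7%, 61.3% and 53.2% for the members, so at 0.5 µg/mL the order by sum was the reverse of the order by median. The distance between the members' median and that of the small-subunit proteins was smaller at 0.5 µg/mL than at the lower doses, which was not tested. The ribosomal protein genes include near-identical pairs, among which reads can be split, while the members are single genes.

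**Figure D5:**
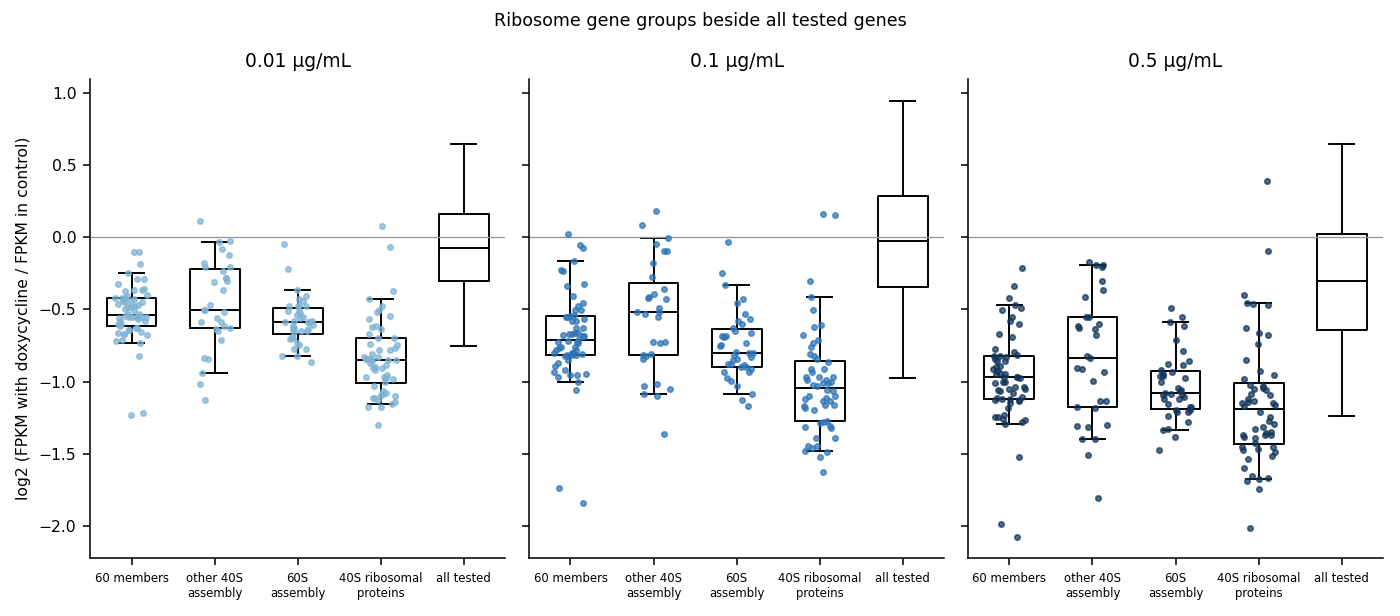
Log2 ratios of pooled FPKM with doxycycline to control (y axis) at 3 doses for the 60 members, 31 other 40S assembly genes, 39 assembly genes of the 60S subunit, 56 small-subunit ribosomal protein genes and all tested genes (x axis). Points are genes (not drawn for all tested genes), boxes the middle 50% with the median and whiskers the 5th and 95th percentiles; the members' medians of -0.54, -0.71 and -0.97 lie below those of all tested genes and above those of the ribosomal protein genes.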

How the data were processed

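RNA sequencing of polyA RNA from 12 yeast samples was analysed from 3 tables, each setting the pooled control against 1 dose. The submitters' processing notes name FastQC, Bowtie2, Cuffdiff and the build R64; the sources used here give no version, setting, annotation or strand handling. The FPKM values were deposited by the authors as 1 pooled level per group, with the unit inferred from column names that are those of Cuffdiff. The log2 fold changes deposited by the authors agree within 1.27e-05 with the log2 ratios computed here from the levels, without a pseudocount. The q-values are p-values adjusted by the authors and are used as deposited. The set of genes over which they were adjusted is not known. Tested genes were those with a level above 0 in both groups and a q below 1, namely 5049, 5054 and 5047 genes with rising dose. The tables were scaled separately (the control columns of the upper doses had median ratios of 0.997 and 0.996 to that of the lowest), so no p is given between doses. No per-sample values are held, so no test, SD or interval was added. The members, roles and comparison lists were chosen with earlier results of these data known. Genes were named by rule: all members may be named, with full values for the largest and smallest change of each role at 0.5 µg/mL and for members not called there. The same rule took, of the other 40S assembly genes, the 5 largest falls and those not called, and 4 promoters. Upstream sequence came from the R64 assembly of RefSeq, in which all 60 members were found by identifier. Python 3.11.15, numpy 2.4.6, pandas 2.3.3 and matplotlib 3.10.9 were used, and the counting and motif steps were tested on simulated data. Each table has 3 blanked lines, which were not used.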

Additional observations from a re-analysis of the deposited data

How the results depend on the processing

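At each dose the members' median log2 ratio stayed below 0 under every alternative tried (pseudocounts of 1 and 10 FPKM, a minimum of 10 FPKM, reading from the median of all genes, rescaling the levels to a common sum). A pseudocount cannot change the sign of a log2 ratio, and the minimum level removed no member. For these settings the sign was thus fixed in advance and is no sign of stability. The count of 0 members called higher was recomputed only under the stricter q, the 2-fold minima and the minimum level, where it stayed 0; these settings narrow the call, so this is no sign of stability. Rescaling to a common sum gave a median of -0.42 at 0.01 and -0.75 at 0.5 µg/mL, and the reading from the median of all genes gave -0.67 at 0.5 µg/mL; these 3 moved by 0.1 or more, and the rest by less. Rescaling raised every log2 ratio by 0.12, 0.04 and 0.22 with rising dose, which put the median of all tested genes at 0.04, 0.01 and -0.08. With a q threshold of 0.01, members called lower at 0.01 µg/mL numbered 21 and all genes called lower 488. With a minimum change of 2-fold, members called lower numbered 2, 4 and 29 with rising dose, all genes called lower 97, 226 and 509, and all genes called higher 117, 214 and 125. Counted as 2-fold from the median of all genes, members called lower numbered 2, 3 and 3 of 60. All genes called lower then numbered 67 of 5049, 209 of 5054 and 205 of 5047 tested, and all genes called higher 133, 220 and 214. The members' falls are thus mostly smaller than 2-fold beyond the shift of all genes. No paired analysis was possible because the tables hold 1 pooled level per group, and for the same reason no replicate could be left out in turn. Within 600 bases, a window chosen after the data were seen, the PAC core was found before 53 members (88.3%, against 32.2% of all promoters), the RRPE core before 46 (76.7%, against 13.6%) and the Rap1 core before 5 (8.33%, against 6.45%), so for PAC and RRPE the contrast with all promoters was smaller than within 250 bases. Depth is unknown, so what it limits cannot be given.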
